A study of Rattus norvegicus with 8 samples.

Results

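Pre-mRNA splicing factors of the hnRNP, SR, SF3, snRNP and U2AF families were followed in rat motoneurons at postnatal day 21 (P21) and postnatal day 1 (P1). The members were every probe set with exactly 1 gene symbol in the platform annotation whose symbol begins with Hnrnp, Srsf, Sf3a, Sf3b, Snrp or U2af. This gave 81 probe sets of 50 genes, out of 31042 probe sets on the array, of which 20826 carried 1 symbol. They comprised 31 probe sets of 17 Hnrnp genes, 20 of 11 Srsf genes, 13 of 9 Sf3a and Sf3b genes, 11 of 10 Snrp genes and 6 of 3 U2af genes. A further 8 probe sets naming several genes, Hnrnpk and Snrpc among them, were left out.

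Motoneurons, the cholinergic cells of the spinal cord that drive muscle, were laser captured at lumbar level from Wistar albino rats of 2 ages: 21-day-old, once myelination of their axons is complete, and 1-day-old, while it is under way. No treatment or genetic change is named for either age, and the design states that animals of 4 litters were shared between the ages. Each age had 4 biological replicates of 1 Affymetrix RAE230 2.0 array, and each array held 1500 to 2000 cells captured from sections stained with cresyl violet, with RNA from pools of 4 rats amplified in 2 rounds from the poly(A) tail. No molecular marker is named for choosing the cells.

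Splicing removes introns from nascent transcripts on the spliceosome, a machine built from small nuclear RNAs and proteins. Snrp genes encode the Sm proteins, which form a ring around most of these RNAs, and other proteins of the U1 and U2 particles. The SF3A and SF3B complexes hold the U2 particle on the intron's branch site, and U2AF recognises the 3′ splice site before it. SR proteins bind exons and usually favour their inclusion, while hnRNP proteins coat nascent RNA and often oppose it, so the balance between the families shapes alternative splicing, which changes widely in neurons after birth.

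Values are the authors' linear intensities. A change is the fitted difference in log2(intensity + 16), P21 minus P1, given with its standard error. A probe set entered the test if 4 or more of the 8 arrays had it over their own 40th percentile (kept), and it was called if limma's p, adjusted over all 19155 kept probe sets, was under 0.05. Of the 81 members 67 were kept, and 66 of those were above that level on all 8 arrays. Kept members read between 235 and 5707, well under the array maxima of 10572 to 11540. Because amplification started at the poly(A) tail, probe sets of 1 gene can differ with their distance from the 3′ end, and intensities of different probe sets are not compared.

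The falls at P21 were small and lay mostly among the hnRNP genes. Over all kept members 17 probe sets fell and 2 rose, while 48 were not called. Of all kept probe sets, 17.4% fell, 20.8% rose and 38.3% were called in either direction, so the members had a share of falls above that of the array and few rises. With the replicate number as a block 25 members fell and 1 rose, while over the array 20.6% of kept probe sets fell, 25.4% rose and 46.0% were called in that fit. The members' median change was -0.17, where that of all kept probe sets was 0.07. Falls were found in 15 genes and rises in 1 gene, Srsf10. In 23 kept members all 4 P21 arrays read below all 4 P1 arrays and in none did they all read above, where 17.7% of all kept probe sets read wholly below, 20.4% wholly above and 38.0% either way. Members called and changed by at least 2-fold numbered 0 of 67, against 10.0% of all kept probe sets.

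**Figure D1:**
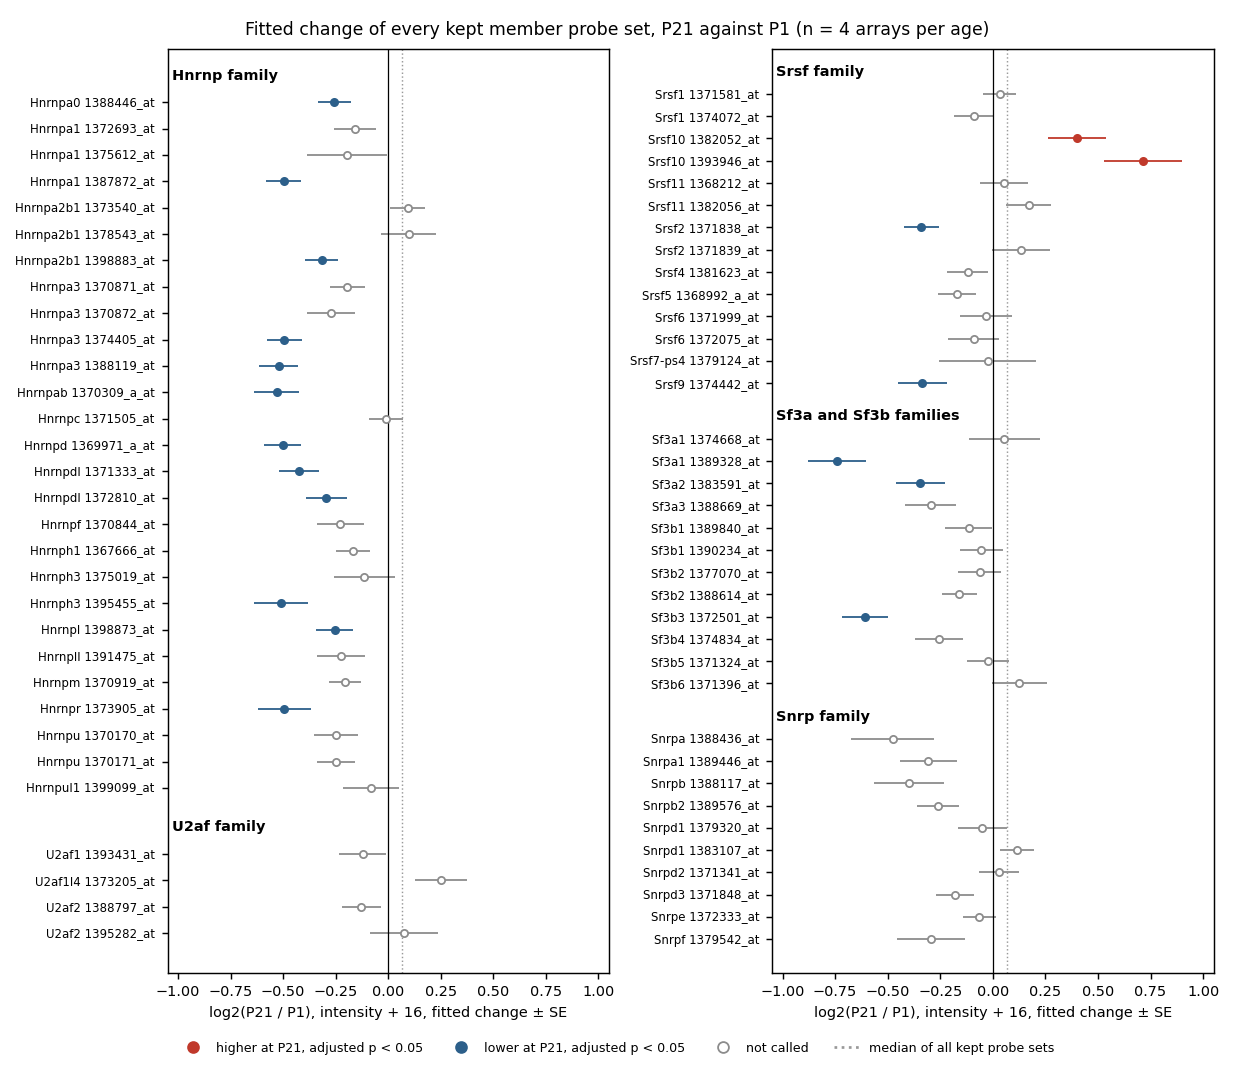
Fitted change (x axis, log2 of P21 over P1 on intensity + 16) with its standard error for each of the 67 kept member probe sets, listed by family; filled points were called and open points were not. The Hnrnp points lie mainly left of 0, with changes from -0.53 to 0.10, and the Srsf10 probe sets, at 0.40 and 0.72, are the only called rises.

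The array as a whole set the frame for these values. Over kept probe sets the correlation of 2 arrays was 0.958 to 0.986 for the same age and 0.821 to 0.868 for different ages. Scaling each array to a common median moved the median change of all kept probe sets to -0.07, and quantile normalization moved it to 0.01. Calls over the whole array were 3990 rises and 3339 falls as deposited, 2595 and 4183 after median scaling, and 3738 and 4052 after quantile normalization. The members had 1 rise and 25 falls after median scaling and 1 rise and 23 falls after quantile normalization.

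Markers of other cells moved with age on the same arrays. Among 9 kept oligodendrocyte and myelin genes 8 rose and 0 fell, with the summed intensity of the list at 46398 to 49856 on P21 arrays, against 10548 to 13060 on P1 arrays. Mobp read 4598 ± 443 at P21, against 9.04 ± 13 at P1 (SD, n = 4). Of 8 astrocyte genes 6 rose and 1 fell (sums of 19199 to 22195 at P21, against 12698 to 13859 at P1). Of 5 kept microglial genes 4 rose (4075 to 8004, against 1779 to 2569.9), and of 7 kept vascular genes 5 rose (12779 to 34404, against 8917 to 11263). Of 7 genes of dividing cells 3 fell (4941 to 7139, against 7015 to 7415), and of 4 kept interneuron genes 3 fell and 1 rose (2382 to 3493, against 6387 to 7132). Of 4 kept Schwann cell genes 3 rose and 1 fell (12436 to 19708, against 10447 to 13865), and of 3 kept erythrocyte genes 2 rose (8699 to 12425, against 2535 to 8241). Not kept were 3 of 8 microglial and 2 of 6 interneuron genes on the array, and the sums take every probe set of a list, kept or not. Of 9 motoneuron genes 1 rose and 2 fell, with changes from -1.67 to 1.32 and a median of 0.003. The list gave sums of 60642 to 69258 at P21 and 63222 to 67660 at P1. Chat, which makes acetylcholine, was on the rising side, at 3451 ± 450.0 at P21, against 1377 ± 244 at P1, while 2 other genes of the list fell. The part of these other cells in the changes of the splicing genes was not tested, and in such bulk RNA fewer cells of a type and less RNA per cell cannot be told apart.

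Promoters of 4 members are shown as the stretches before the genes whose changes are described most closely below: the largest called fall of the Hnrnp, Srsf and SF3 genes, and Srsf10, the gene that rose. Each is the 250 bases upstream of the RefSeq start in the GRCr8 build, 5′ to 3′ on the gene's strand. Capitals mark matches, on either strand, to any of 6 motifs. They are the TATA box, searched as TATAAA, the box named by its letters CCAAT, the GC box, searched as GGGCGG, the ETS site, searched as CCGGAAGT, the cyclic AMP response element, searched as TGACGTCA, and the E-box, searched as CACGTG.
Hnrnpab, chr10:36363899-36364148, minus strand: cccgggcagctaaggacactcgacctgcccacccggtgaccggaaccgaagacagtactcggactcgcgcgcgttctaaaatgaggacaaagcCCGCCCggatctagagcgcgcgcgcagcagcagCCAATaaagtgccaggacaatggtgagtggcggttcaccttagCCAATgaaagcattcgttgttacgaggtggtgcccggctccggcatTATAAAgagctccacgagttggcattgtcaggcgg
Srsf2, chr10:102554142-102554391, minus strand: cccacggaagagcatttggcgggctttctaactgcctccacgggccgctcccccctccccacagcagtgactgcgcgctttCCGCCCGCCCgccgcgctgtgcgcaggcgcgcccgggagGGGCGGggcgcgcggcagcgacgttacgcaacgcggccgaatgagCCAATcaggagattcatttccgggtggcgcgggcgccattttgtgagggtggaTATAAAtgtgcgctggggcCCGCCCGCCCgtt
Sf3a1, chr14:83254721-83254970, plus strand: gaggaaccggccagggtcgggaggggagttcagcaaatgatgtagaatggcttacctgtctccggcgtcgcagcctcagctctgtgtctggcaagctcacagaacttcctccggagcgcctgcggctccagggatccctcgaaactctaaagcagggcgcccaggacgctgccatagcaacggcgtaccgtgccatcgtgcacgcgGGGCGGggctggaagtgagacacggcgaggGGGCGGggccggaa
Srsf10, chr5:153372066-153372315, plus strand: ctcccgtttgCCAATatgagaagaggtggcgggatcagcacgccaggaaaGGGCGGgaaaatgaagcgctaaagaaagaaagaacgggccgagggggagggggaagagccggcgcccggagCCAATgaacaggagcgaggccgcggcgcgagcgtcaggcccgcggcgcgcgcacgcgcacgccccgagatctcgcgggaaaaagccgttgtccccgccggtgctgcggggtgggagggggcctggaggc
The Hnrnpab and Srsf2 stretches hold a TATA box whose first base lies 35 and 32 bases before the start, together with CCAAT and GC boxes. The Sf3a1 stretch holds 2 GC boxes alone. The Srsf10 stretch, the first of 2 starts listed for that gene, holds 2 CCAAT boxes and 1 GC box.

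Promoters of 46 of the 50 member genes were matched, and 1 start per gene was searched. A GC box was found in 29 of the 46 (63.0%), against 32.4% of the promoters of 27457 rat genes. A CCAAT box was found in 50.0%, against 34.3% of all genes, an ETS site in 15.2%, against 3.29%, and a TATA box in 10.9%, against 13.1%. The cyclic AMP response element was found in 2.17%, against 1.70%, and the E-box in 8.70%, against 5.80%. The median GC content of the stretches was 60.4% in members and 52.0% in all genes, and GC-rich motifs and base composition cannot be told apart here. Among genes that fell, 12 of 15 held a GC box and 9 of 15 a CCAAT box, compared with 15 and 11 of the 27 member genes with a matched promoter, a kept probe set and no call. The TATA box was in 3 of 15 against 1 of 27, and the E-box in 2 against 1. The ETS site was in 2 of 15 against 5 of 27, and the cyclic AMP response element in 0 against 1. These matches describe letters in a window and were not tested.

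The Hnrnp genes had the most falls. Of 27 kept probe sets 12 fell (17.4% over the array), from 10 of the 17 genes, and 15 were not called. Limma called 0 rises, and 0 probe sets had a positive change at an unadjusted p under 0.05, against 17 with a negative one. The share of all kept probe sets at that unadjusted threshold was not counted. The median change was -0.25, and 25 of the 27 fitted changes were below 0. All 4 P21 arrays lay below all 4 P1 arrays in 16 of the 27, beside 17.7% of all kept probe sets. The median was -0.39 after median scaling and -0.24 after quantile normalization. Counts of falls lay between 9 and 17 under the other settings tried, with 0 rises under each. Over the array the falls lay between 2655 and 4183 under those settings, and the filter settings changed the number tested.

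Hnrnpab, which encodes an RNA-binding protein also known as CArG-binding factor A, had the largest fitted fall of the family (1370309_a_at). It read 2838, 3275, 3572 and 2971 on the P21 arrays, against 4240.0, 4328, 5083 and 4646 on the P1 arrays. The highest P21 array stayed below the lowest P1 array, and the change was -0.53 ± 0.11 (adjusted p = 0.00339), 1.45-fold lower at P21.

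Hnrnpd, whose protein AUF1 binds AU-rich elements and speeds decay of messenger RNAs, fell alike (1369971_a_at). Its intensities were 1681, 1736, 1706 and 1750.0 on the P21 arrays, against 2477, 2200.0, 2578 and 2530.1 on the P1 arrays. The P21 arrays lay close together and did not overlap the P1 arrays, with a change of -0.50 ± 0.086 (adjusted p = 0.0014). Its relative Hnrnpdl fell on both kept probe sets, with a change of -0.43 ± 0.095 on 1371333_at (adjusted p = 0.00632) and by less on 1372810_at, which read 3847, 3539, 3937 and 3867 on the P21 arrays, against 4757, 4022, 4976 and 4946 on the P1 arrays. The ages did not overlap there, and the change of -0.29 ± 0.098 (adjusted p = 0.0393) was no longer called after leaving out any 1 of 7 of the 8 arrays.

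Genes of the hnRNP A and B proteins, of which hnRNP A1 is the best known antagonist of SR proteins at exons, fell on part of their probe sets. Hnrnpa1 had 3 kept probe sets. On 1387872_at it read 2407, 2299, 2488 and 2490.4 on the P21 arrays, against 3472, 3275, 3625 and 3333 on the P1 arrays, with no overlap and a change of -0.50 ± 0.082 (adjusted p = 0.00114). On 1372693_at it read 1309.9, 1296, 1432 and 1462 on the P21 arrays, against 1625, 1348, 1492 and 1684 on the P1 arrays, where the ages overlapped and the change of -0.16 ± 0.10 (adjusted p = 0.251) was not called. On 1375612_at it read 706, 753, 684 and 1159.7 on the P21 arrays, against 809, 1223, 883 and 837 on the P1 arrays, again overlapping, with 1 bright array at each age and a change of -0.19 ± 0.19 (adjusted p = 0.456).

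Hnrnpa3, a close relative of hnRNP A1, had 4 kept probe sets with changes from -0.52 to -0.19. The probe set 1388119_at read 2135, 2090.1, 2283 and 2574 on the P21 arrays, against 3209.7, 3341, 3270.3 and 3205 on the P1 arrays. The P1 arrays spanned a narrow range above every P21 array, and the change was -0.52 ± 0.093 (adjusted p = 0.00176). The probe set 1374405_at read 1542, 1417, 1582 and 1474 on the P21 arrays, against 2253, 2062, 2034 and 2152 on the P1 arrays, also without overlap, with a change of -0.49 ± 0.084 (adjusted p = 0.00137). The other 2 kept probe sets, 1370871_at and 1370872_at, had changes of -0.19 ± 0.084 (adjusted p = 0.0982) and -0.27 ± 0.11 (adjusted p = 0.0895), and the second was called with the replicate number as a block (adjusted p = 0.0395).

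Hnrnpa2b1, whose protein is also known for carrying messenger RNAs along processes, differed between its probe sets. On 1398883_at it read 2837, 2914, 2858 and 2828 on the P21 arrays, against 3689, 3560.4, 3567 and 3446 on the P1 arrays, without overlap, and fell with a change of -0.32 ± 0.077 (adjusted p = 0.0097). The probe set 1373540_at read 1789.6, 1646, 1750.5 and 1829 on the P21 arrays, against 1663, 1545, 1662 and 1706 on the P1 arrays, with overlapping ages and a change of 0.092 ± 0.083 (adjusted p = 0.416). The probe set 1378543_at read 649.9, 526, 648 and 563 on the P21 arrays, against 462, 631, 513 and 633 on the P1 arrays, with a change of 0.097 ± 0.13 (adjusted p = 0.59), and its 95% interval of -0.19 to 0.39 did not reach the fall of the first probe set. The last, 1395561_at, was below the filter level on all 8 arrays, at 139, 138, 49.7 and 109 on the P21 arrays and 93.5, 147, 68.4 and 56.8 on the P1 arrays. The difference between the probe sets was not itself tested.

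Hnrnph3, of the family that binds runs of G, also fell on 1 of 2 probe sets. On 1395455_at it read 757, 849, 684 and 746 on the P21 arrays, against 1041, 1345, 1079.5 and 918 on the P1 arrays, with no overlap and a change of -0.51 ± 0.13 (adjusted p = 0.0108), while on 1375019_at the change was -0.11 ± 0.15 (adjusted p = 0.57). Hnrnpr, whose protein binds beta-actin messenger RNA in motor axons and associates with SMN in mouse, read 1328, 1755, 1884 and 1796 on the P21 arrays, against 2118, 2507, 2458 and 2404 on the P1 arrays. The 4 P21 arrays were all lower, with a change of -0.49 ± 0.12 (adjusted p = 0.0115).

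Smaller falls were seen in Hnrnpa0, which binds AU-rich elements, and Hnrnpl, which binds CA repeats. Hnrnpa0 read 4517, 4662, 4727 and 4450.4 on the P21 arrays, against 5408, 5246, 5623 and 5657 on the P1 arrays, with no overlap and a change of -0.26 ± 0.079 (adjusted p = 0.0296). Hnrnpl averaged 3603 ± 199 at P21, against 4302 ± 216 at P1 (SD, n = 4), with a change of -0.26 ± 0.087 (adjusted p = 0.0425). These calls were lost without some single arrays: Hnrnpa0 kept its call in 3 of the 8 fits that left an array out, and Hnrnpl in 1.

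Other hnRNP genes were not called. Hnrnpc, which binds U-tracts of nascent RNA, read 4495, 4278, 4674 and 4488 on the P21 arrays, against 4595, 4632, 4569 and 4264 on the P1 arrays. These ages overlapped almost wholly, with a change of -0.0099 ± 0.081 (adjusted p = 0.934) and a 95% interval of -0.19 to 0.17. Hnrnpu, a nuclear scaffold protein, had 2 kept probe sets at -0.25 ± 0.10 (adjusted p = 0.0853) and -0.25 ± 0.090 (adjusted p = 0.0536), and the first was called with the replicate block (adjusted p = 0.0377). Hnrnpm (-0.20 ± 0.077, adjusted p = 0.0624) and Hnrnph1 (-0.17 ± 0.081, adjusted p = 0.133) had P21 arrays all below the P1 arrays without passing the test. Hnrnpf (-0.23), Hnrnpll (-0.22) and Hnrnpul1 (-0.083) overlapped between the ages.

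**Figure D2:**
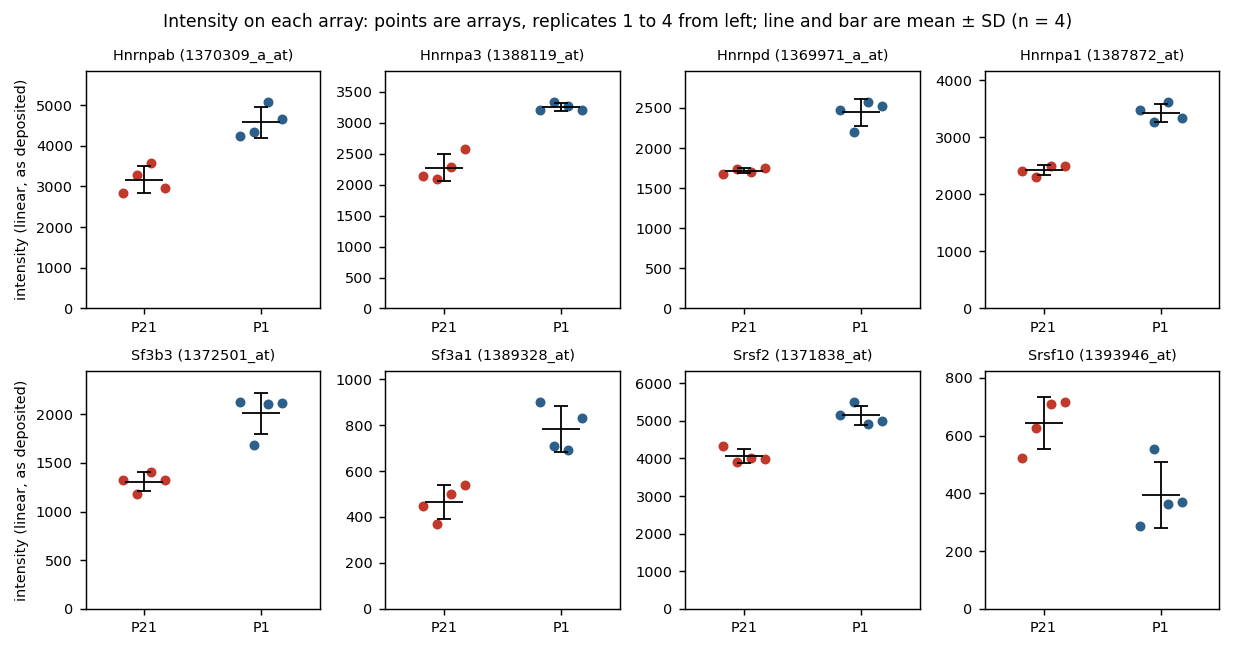
Linear intensity (y axis, from 0) on each P21 and P1 array for 8 called member probe sets, with points for single arrays, replicates 1 to 4 from the left, and the mean ± SD (n = 4). In the first 7 panels the P21 points lie below the P1 points without overlap, while for Srsf10 they lie higher, with P1 replicate 2 at 554 above the lowest P21 array at 524.

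Of 14 kept probe sets of SR genes 2 fell, 2 rose and 10 were not called, beside 17.4% falls and 20.8% rises over the array, with a median change of -0.03. After median scaling and after quantile normalization 2 fell and 1 rose, and the medians were -0.17 and -0.08. The difference between the families was not tested.

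Srsf10, whose protein SRp38 acts as a splicing repressor when it is dephosphorylated, rose on both of its kept probe sets. On 1393946_at it read 524, 627, 708 and 717 on the P21 arrays, against 287, 554, 364 and 369.8 on the P1 arrays. P1 replicate 2 was the only P1 array within the P21 range, and the change was 0.72 ± 0.19 (adjusted p = 0.0135), 1.64-fold higher at P21. On 1382052_at it read 1114, 1019.8, 1172 and 1253 on the P21 arrays, against 683, 1073, 831 and 889 on the P1 arrays, again with P1 replicate 2 inside the P21 range, and the change was 0.40 ± 0.14 (adjusted p = 0.0455). That second call was lost with the replicate block (adjusted p = 0.0504), after median scaling (0.206), after quantile normalization (0.0626) and with no filter (0.0854), and it held in 2 of the 8 fits that left an array out. The first probe set held in 8 of 8. The other 3 probe sets of Srsf10 were below the filter level on every array.

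Srsf2, the SR protein SC35 that marks nuclear speckles, had probe sets that went apart. On 1371838_at it read 4334, 3909, 4007 and 3989 on the P21 arrays, against 5152, 5504, 4928 and 4992 on the P1 arrays. All P21 arrays were lower, and the change was -0.34 ± 0.084 (adjusted p = 0.0106). On 1371839_at it read 556, 433, 618 and 676 on the P21 arrays, against 466, 562, 495 and 529 on the P1 arrays, with overlapping ages and a change of 0.13 ± 0.14 (adjusted p = 0.478). Srsf9, a small SR protein, read 1293, 1158, 1171 and 1384 on the P21 arrays, against 1518, 1352, 1653 and 1829 on the P1 arrays, where P1 replicate 2 fell just inside the P21 range, and its change was -0.34 ± 0.12 (adjusted p = 0.0446). Its call held in 2 of the 8 fits that left an array out.

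Srsf1, the archetypal SR protein ASF/SF2, was not called on either probe set. On 1371581_at it read 2186, 2031, 2161 and 2171 on the P21 arrays, against 2086, 2159.6, 2075 and 2030.3 on the P1 arrays, and on 1374072_at it read 1443, 1433, 1635 and 1652 on the P21 arrays, against 1618, 1537, 1759 and 1651 on the P1 arrays. The ages overlapped in both, and the changes of 0.033 ± 0.079 and -0.092 ± 0.093 had 95% intervals of -0.14 to 0.21 and -0.30 to 0.12. These intervals exclude a change of 2-fold in either direction on these probe sets. That of 1374072_at still holds a fall of the size called for Hnrnpa0 (-0.26).

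Srsf5 and Srsf11 were likewise not called. Srsf5 read 2929, 2699, 3083 and 3001 on the P21 arrays, against 3513, 3077, 3473 and 3147 on the P1 arrays, with a change of -0.17 ± 0.091 (adjusted p = 0.167). Srsf11, which promotes inclusion of neuronal microexons, read 2558, 1959, 2272 and 2177 on the P21 arrays, against 1933, 2476, 2037 and 2191 on the P1 arrays on 1368212_at, with a change of 0.053 ± 0.12 (adjusted p = 0.743), and its other probe set had 0.17 ± 0.11 (adjusted p = 0.243). Srsf4 (-0.12) and the kept probe sets of Srsf6 (-0.035 and -0.091) had overlapping ages. The probe set annotated to the pseudogene Srsf7-ps4, which may share sequence with Srsf7, had a change of -0.024 ± 0.23. Neither the Srsf3 nor the Srsf7 probe set was kept, and the Srsf7 probe set had intensities below 0 on the P21 arrays (-367, -775, -382 and -437) and 84.5, 175, 31.8 and 39.8 on the P1 arrays, all under the filter level, so no fold is given.

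Among SF3 genes, whose products fix the U2 particle to the branch site, 3 of 12 kept probe sets fell and 9 were not called, where 17.4% of all kept probe sets fell. Limma called 0 rises, and at an unadjusted p under 0.05, a threshold not counted over the array, there were 0 positive and 5 negative changes. The median change was -0.14, and in 4 probe sets all P21 arrays lay below all P1 arrays, beside 17.7% of all kept probe sets. After quantile normalization 5 fell, where 4052 of all 19155 kept probe sets fell. With the replicate block 5 fell, where 20.6% of all kept probe sets fell.

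Sf3b3, a scaffold subunit of SF3B, fell. It read 1329, 1176, 1409 and 1323 on the P21 arrays, against 2128, 1685, 2108 and 2115 on the P1 arrays. All P21 arrays lay below the P1 arrays, among which replicate 2 was the lowest, and the change was -0.61 ± 0.11 (adjusted p = 0.00176), 1.52-fold lower at P21. Sf3a2, of the SF3A complex, read 2335, 1745, 1949 and 2354 on the P21 arrays, against 2874, 2526, 2593 and 2601 on the P1 arrays, without overlap and with a change of -0.34 ± 0.12 (adjusted p = 0.0418), and its call held in 2 of the 8 fits that left an array out.

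Sf3a1, the largest subunit of SF3A, had 2 kept probe sets that differed. On 1389328_at it read 449, 369, 501 and 539 on the P21 arrays, against 901, 708, 693 and 831 on the P1 arrays. The ages were far apart, and the change of -0.74 ± 0.14 (adjusted p = 0.00232), 1.67-fold lower at P21, was the largest fitted fall of all members. On 1374668_at it read 415, 526, 441 and 355 on the P21 arrays, against 474, 525, 335 and 351 on the P1 arrays, with overlapping ages and a change of 0.054 ± 0.17 (adjusted p = 0.825). The 95% interval of the second, -0.33 to 0.43, did not contain the fitted change of the first.

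Sf3b1, which grips the branch-site helix and is the best known target of splicing-factor mutations in blood disorders, was not called. On 1389840_at it read 1352, 1704, 1401 and 1662 on the P21 arrays, against 1654, 1878, 1563 and 1526 on the P1 arrays, and on 1390234_at it read 1791, 1683, 1691 and 1941 on the P21 arrays, against 1739, 2119, 1679 and 1865 on the P1 arrays. The ages overlapped in both, with changes of -0.12 ± 0.11 (adjusted p = 0.457) and -0.055 ± 0.10 (adjusted p = 0.703). Its remaining probe set read 21, 18.6, 31.3 and 7.75 on the P21 arrays and 15.2, 40.1, 23.2 and 19.1 on the P1 arrays, under the filter level.

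The other SF3 genes were not called. Sf3b2 read 2679, 2821, 2882 and 3105 on the P21 arrays, against 3156, 3160.3, 3221 and 3279 on the P1 arrays on 1388614_at, where the ages did not overlap but the change of -0.16 ± 0.083 (adjusted p = 0.166) was not called. Sf3b5 read 2681, 2645, 3318 and 2763 on the P21 arrays, against 2792, 2833, 3048 and 2882 on the P1 arrays, with a change of -0.024 ± 0.099 (adjusted p = 0.867). Sf3b6, the subunit that touches the branch-site adenosine, read 2348, 2582, 3375 and 2866 on the P21 arrays, against 2225, 2421, 2818 and 2714 on the P1 arrays, with a change of 0.13 ± 0.13 (adjusted p = 0.481). Sf3a3 (-0.30, adjusted p = 0.0845) and Sf3b4 (-0.26, adjusted p = 0.105) were called with the replicate block, at adjusted p of 0.048 and 0.0366.

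Among Snrp genes the number of calls depended on the fit. In the values as deposited and with no block, limma called 0 of 10 kept probe sets, while 4 had a negative and 0 a positive change at an unadjusted p under 0.05. Over the array that unadjusted threshold was not counted, and 17.4% fell at the adjusted one. The median change was -0.22. With the replicate number as a block 4 of 10 fell, where 20.6% of all kept probe sets fell. They were Snrpa, which encodes a protein of the U1 particle, Snrpa1 and Snrpb2, which encode proteins of the U2 particle, and Snrpb, which makes the Sm proteins B and B′. The count was 3 after median scaling, 2 after quantile normalization, 2 with an intensity trend in eBayes and 1 under the stricter filter at the 60th percentile. Over the array 4183 of 19155 kept probe sets fell after median scaling, 4052 after quantile normalization and 3653 with the trend. Under the stricter filter 2887 of 12966 fell.

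Snrpb shows the pattern. It read 1176, 1156, 1672 and 1788 on the P21 arrays, against 1695, 1686, 2056 and 2112 on the P1 arrays. Replicates 1 and 2 were lower than 3 and 4 at both ages, so that the ages overlapped, while each P21 array was below the P1 array of its own number. The change was -0.40 ± 0.17, with an adjusted p of 0.0858 without the block and 0.0121 with it, and the differences of the same-numbered arrays were -0.52, -0.54, -0.30 and -0.24. Snrpa read 342, 406, 524 and 675 on the P21 arrays, against 584, 603, 799 and 682 on the P1 arrays, with a change of -0.48 ± 0.20 (adjusted p = 0.0864), or 0.0265 with the block. Its differences by number were -0.75, -0.55, -0.60 and -0.01, so number 4 showed nearly no difference. Snrpa1 (-0.31, adjusted p = 0.104) and Snrpb2 (-0.26, adjusted p = 0.0657) were lower at P21 in 4 of 4 pairs, at adjusted p of 0.023 and 0.038 with the block. Snrpd3 was also lower in 4 of 4 pairs, without a call with or without the block. The share of all kept probe sets lower in 4 of 4 pairs was not counted. These 4 genes are shown because the block called them, and the design does not say that a replicate number marks a litter.

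**Figure D3:**
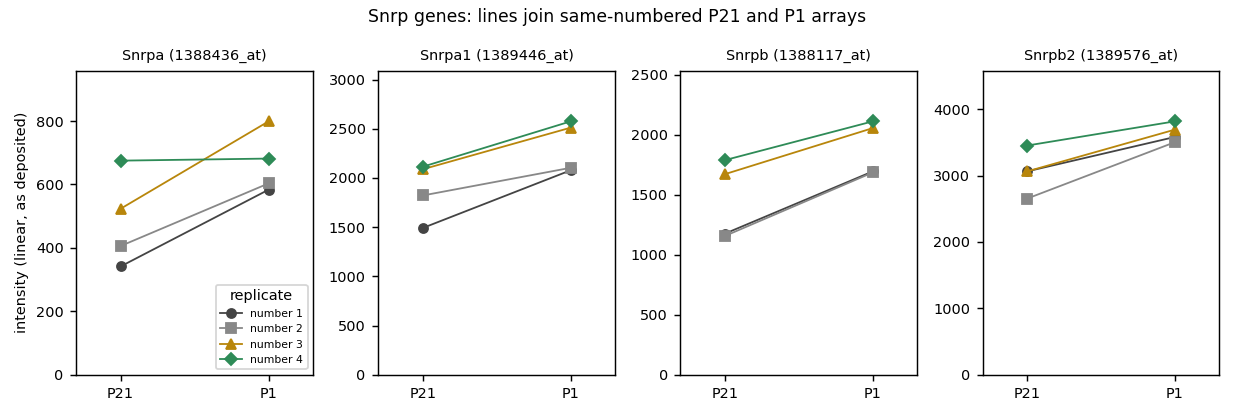
Linear intensity (y axis, from 0) of 4 Snrp probe sets, with lines joining the P21 and P1 arrays of the same replicate number. In each panel the P21 end of every line is the lower one, by the least for number 4 of Snrpa (675 at P21 and 682 at P1). The 4 are the Snrp probe sets called with the replicate block.

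The other Sm proteins were not called. Snrpe read 5329, 5200.2, 5291 and 5549 on the P21 arrays, against 5707, 5615, 5557 and 5462 on the P1 arrays, with a change of -0.064 ± 0.077 (adjusted p = 0.548). Snrpd2 read 4861, 4865, 5626 and 5358 on the P21 arrays, against 4813, 4686, 5335 and 5478 on the P1 arrays, where arrays 3 and 4 of each age were the brighter ones, with a change of 0.028 ± 0.096 (adjusted p = 0.838). Snrpd3 read 4152, 4252, 4456 and 3976 on the P21 arrays, against 4739, 4539, 5265 and 4547 on the P1 arrays, without overlap but with a change of -0.18 ± 0.089 (adjusted p = 0.145) that was not called. The kept probe sets of Snrpd1 had changes of -0.050 and 0.12. Snrpf read 3692, 3514, 3451 and 4265 on the P21 arrays, against 5193, 3217, 5055 and 5109 on the P1 arrays, and P1 replicate 2 stood far below the other P1 arrays. Its change was -0.29 ± 0.16 (adjusted p = 0.187), and the call at adjusted p under 0.05 was reached, among the settings tried, only when P1 replicate 2 was left out (0.00892, change -0.46).

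Snrpn encodes SmN, the neuronal counterpart of SmB. Its single-symbol probe set was below the filter level on every array, at 222, 249, 152 and 112 on the P21 arrays and 216, 186, 144 and 184 on the P1 arrays, and probe sets that also name Snurf were not used, so no statement about its level is made.

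U2AF genes were not called in any of the 4 kept probe sets. The median change was -0.02, limma called 0, 0 were at an unadjusted p under 0.05, and the replicate block and each other setting called 0. U2af2, the subunit that binds the polypyrimidine tract, read 4472, 3682, 3724 and 3962 on the P21 arrays, against 4487, 4165, 4270.5 and 4354 on the P1 arrays on 1388797_at, with a change of -0.13 ± 0.093 (adjusted p = 0.306). On 1395282_at it read 413, 374, 283 and 292 on the P21 arrays, against 340.4, 398, 254 and 297 on the P1 arrays, with a change of 0.075 ± 0.16 (adjusted p = 0.745), and on 1395614_at, under the filter level, 16.8, 13.9, -9.65 and 8.99 on the P21 arrays, against 17.5, 22.2, -4.49 and 39.4 on the P1 arrays. U2af1, which reads the AG at the 3′ splice site, gave 3606, 3722, 4157 and 3646 on the P21 arrays, against 4326, 3429, 4616 and 4174 on the P1 arrays. These values overlapped, with P1 replicate 2 the lowest of all, and the change was -0.12 ± 0.11 (adjusted p = 0.422). U2af1l4, a paralogue of U2af1, gave 2139.6, 2408, 3076 and 2376 on the P21 arrays, against 1894, 2030.2, 2182 and 2239.8 on the P1 arrays, where the change of 0.25 ± 0.12 (adjusted p = 0.143) was positive and P21 was higher in 4 of 4 pairs without a call. The share of all kept probe sets higher in 4 of 4 pairs was not counted.

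**Figure D4:**
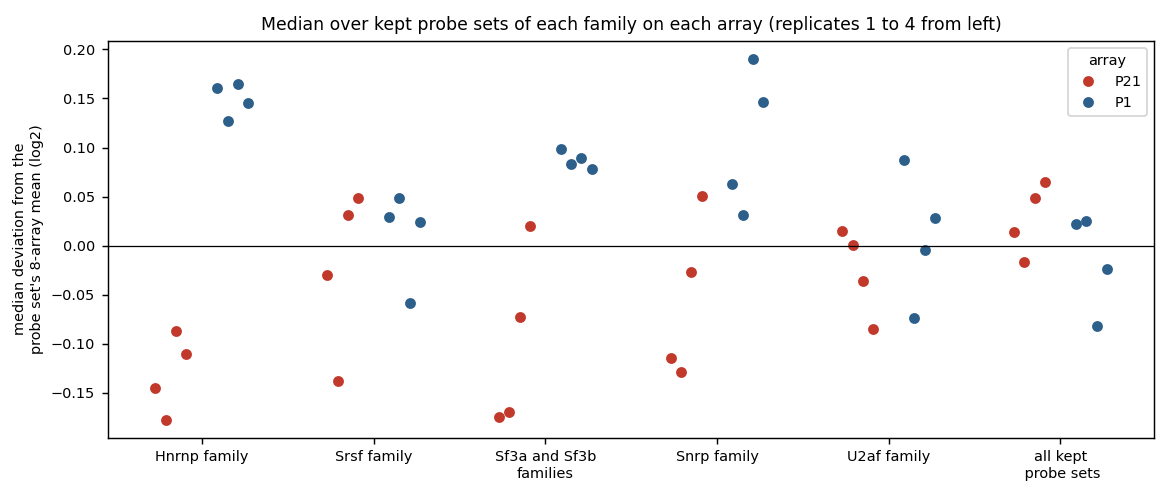
Median over the kept probe sets of each family, on each array, of the log2 value minus that probe set's mean over the 8 arrays (y axis, log2 units), for P21 and P1 arrays side by side, and for all kept probe sets. The Hnrnp medians lie between -0.18 and -0.09 on P21 arrays and between 0.13 and 0.16 on P1 arrays, while the ages overlap for the Srsf, Snrp and U2af families.

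The family medians by array show where the replicates differed. For the Hnrnp probe sets the median deviation lay between -0.18 and -0.09 on the P21 arrays, against 0.13 to 0.16 on the P1 arrays. For Sf3a and Sf3b it lay between -0.17 and 0.02 on the P21 arrays, against 0.08 to 0.10 on the P1 arrays, and for Snrp between -0.13 and 0.05, against 0.03 to 0.19. The Snrp medians of replicates 1 and 2 were below those of 3 and 4 at each age. All kept probe sets lay between -0.02 and 0.06 on P21 arrays, against -0.08 and 0.03 on P1 arrays.

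Genes with several kept probe sets numbered 16 among the members. In 0 of them were probe sets called in opposed directions, but in 6 at least 1 probe set was called and another was not (Hnrnpa1, Hnrnpa2b1, Hnrnpa3, Hnrnph3, Srsf2 and Sf3a1), and in 6 the fitted changes differed in sign. The widest gap was in Sf3a1, 0.79 on the log2 scale, and the narrowest in Hnrnpu, 0.0013. Among these 16 genes, Hnrnpdl and Srsf10 were the ones called on every kept probe set.

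A count of falls per gene thus rests on the probe set read. The 14 members that were not kept, from 12 genes, read between -775 and 282, and no fold is given for them. For 3 of the 50 genes (Srsf3, Srsf7 and Snrpn) no probe set was kept.

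Related genes outside these families were read from 4 lists by their kept probe set of highest mean, for which 22.0% of 10961 genes rose and 17.4% fell. Of 92 kept genes of other spliceosome proteins, 9 rose, 6 fell and 77 were not called, with a median of 0.05, and 2 rose and 10 fell after median scaling, or 8 and 11 after quantile normalization. With the replicate block 14 rose and 9 fell. Leaving out P21 replicate 3 gave 4 rises and 7 falls, and leaving out P21 replicate 4 gave 4 rises and 6 falls. Over all 19155 kept probe sets those fits gave 3443 rises and 3337 falls, and 3404 rises and 3104 falls. Rnpc3, a protein of the minor spliceosome's U11/U12 particle, rose with a change of 0.87 ± 0.19 (adjusted p = 0.00612). Wbp4, which joins splicing complexes at an early stage, rose by 0.54, and Ncbp1, the large cap-binding subunit, by 0.43. Ppil1 (-0.65), a prolyl isomerase of the spliceosome, Dhx16 (-0.56), a helicase, and Eif4a3 (-0.44), of the exon junction complex, fell.

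Of 34 kept kinases of SR proteins and SR-related genes, 2 rose, 6 fell and 26 were not called, with a median of 0.04. Clk3, a kinase that phosphorylates SR proteins, read 1461 ± 214 at P21, against 961 ± 109.9 at P1 (SD, n = 4) and rose by 0.59 ± 0.13 (adjusted p = 0.00648), while its relative Clk2 fell with a change of -0.43 ± 0.10 (adjusted p = 0.00921). Son, a large speckle protein, rose (0.53 ± 0.095, adjusted p = 0.00182), and Ppig (-0.51) and Rnps1 (-0.41) fell.

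Of 24 kept genes of the SMN complex and the assembly of small nuclear particles, 4 fell and limma called 0 rises, with a median of 0.03. The falls were 16.7% of the list, near the 17.4% of all genes that fell, while 22.0% of all genes rose. At an unadjusted p under 0.05, a threshold not counted over the array, 1 change was positive and 6 were negative. Ddx20, or Gemin3 (-0.44), Gemin5, which recognises small nuclear RNAs (-0.44 ± 0.098, adjusted p = 0.00648), and Tgs1, which methylates their cap (-0.41), were the largest falls. The replicate block gave 6 falls and 1 rise.

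Of 32 kept genes of other hnRNP and like proteins, 9 fell, 2 rose and 21 were not called, with a median of -0.14, and after median scaling 12 fell and 1 rose. Rbm3, a cold-induced RNA-binding protein, read 2475 ± 370.3 at P21, against 4767 ± 195 at P1 (SD, n = 4), a change of -0.95 ± 0.11 (adjusted p = 1.56e-04). Sfpq, of paraspeckles, fell with a change of -0.70 ± 0.11 (adjusted p = 8.79e-04), and Cirbp, another cold-induced protein, with -0.58 ± 0.13 (adjusted p = 0.00584). Tardbp (0.68) and Pcbp4 (0.35) rose, but another kept probe set of Tardbp was called lower (-0.42, adjusted p = 0.0285).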

How the data were processed

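RNA of laser-captured rat motoneurons was hybridised to 4 P21 and 4 P1 arrays. The authors deposited linear intensities per probe set, of which some are below 0, and their summary, background correction and scaling are not given in the sources used here. Array medians ran from 399.6 to 416 at P21 and from 323 to 408 at P1, and 4 arrays an age limit precision. Names come from the platform annotation, and all 81 members matched a gene identifier in the GRCr8 gene table, with 0 symbols changed. Of the 31042 probe sets 436 had several symbols and 9780 none.

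Negative intensities entered as 0, and limma 3.58.1 in R 4.3.3 (lmFit, eBayes) fitted log2(intensity + 16) over both ages with no covariate. Benjamini-Hochberg adjustment covered the 19155 kept probe sets, and the code was tested on simulated data. Alternatives were median scaling, quantile normalization, pseudocounts of 1 and 64, no filter, a filter at the 60th percentile, an intensity trend, each array left out, and the replicate number as a block.

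Deviations of same-numbered arrays from their age's mean had correlations of 0.514 (number 1), 0.321 (2), 0.558 (3) and 0.150 (4), each over 0.1, but 2 pairs of different number exceeded number 4, P21 replicate 3 with P1 replicate 4 (0.366) and P21 replicate 2 with P1 replicate 1 (0.262). Calls come from the fit without the block, and blocked values stand beside members whose calls differ. Counts not given above also moved with the block. Hnrnp had 0 rises and 14 falls, Srsf 1 and 2, SR kinases and SR-related genes 4 and 7, and other hnRNP genes 3 and 10. Over the array 25.4% rose and 20.6% fell in that fit. The design text divides litters between ages without saying that a number is a litter. P-values weigh the difference between the ages against the spread between these pooled samples, not between single rats.

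Array values are given for the 6 largest called falls and rises of each family, the 3 brightest probe sets of each, genes with a called probe set and one of opposite sign, and 10 genes fixed by role, Hnrnpk being without a single-symbol probe set. Other members, named by their changes or values, were picked after their values were seen. Of each list the 3 largest called rises and falls are named. The members and lists were chosen with earlier results of these data known. Promoters are RefSeq sequences of GRCr8.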

Additional observations from a re-analysis of the deposited data

Results flagged for a closer look

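In a group of 4 arrays, 1 array was set apart when its gap to the nearest other took up more of the group's whole range than Dixon's 95% critical value. Of 134 such groups, 4 were set apart, and chance alone gives about 1 in 20. Hnrnpa1 (1375612_at) read 1159.7 on P21 replicate 4, against 684 to 753 on the other P21 arrays. Srsf1 (1371581_at) read 2031 on P21 replicate 2, against 2161 to 2186 on the others. Sf3b3 read 1685 on P1 replicate 2, against 2108 to 2128 on the other P1 arrays, and its call held in 8 of 8 fits that left an array out. Snrpf read 3217 on P1 replicate 2, against 5055 to 5193 on the other P1 arrays, and was called (adjusted p = 0.00892) without that array.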

How the results depend on the processing

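Of the 19 called members, 0 changed direction under any alternative, and both pseudocounts kept all 19 calls. With no filter 13 were still called, with the replicate block 18, after either scaling 18, and without single arrays 13 to 18. The 60th-percentile filter dropped 1 of them, the Srsf10 probe set 1393946_at, from testing and kept 18. The calls lost in some fits were Hnrnpa0, Hnrnpl, Srsf9, Sf3a2, Hnrnpdl (1372810_at) and Srsf10 (1382052_at). The number called among all members was 26 with the replicate block, against 19 without it, while the calls over the array were 8805 with it and 7329 without it, and the block also added Hnrnpa3 (1370872_at), Hnrnpu (1370170_at), Sf3a3, Sf3b4, Snrpa, Snrpa1, Snrpb and Snrpb2.
Counts called by family moved by over 1.5 times as follows. The SF3 genes had 3 calls, or 5 after quantile normalization and 5 with the replicate block. The Snrp genes had 0 calls, or 3 after median scaling, 2 after quantile normalization, 1 with the 60th-percentile filter, 4 with the replicate block and 2 with the intensity trend. Without a filter the other spliceosome genes had 7 calls rather than 15, the SR kinases and SR-related genes 5 rather than 8, and the SMN genes 1 rather than 4. Over the array the fit without a filter called 7226 of 31042 probe sets, against 7329 of 19155 in the main fit. With the replicate block the other spliceosome genes had 23 and the SMN genes 7. Leaving out single arrays gave 9 to 13 calls among Hnrnp, 2 to 4 among Srsf, 2 to 4 among SF3, 0 to 3 among Snrp (3 without P21 replicate 4), 7 to 14 among other spliceosome, 5 to 10 among SR kinase and related, 1 to 6 among SMN and 7 to 12 among other hnRNP genes. Over all 19155 kept probe sets, leaving out single arrays gave 5985 to 7419 calls. The fits that left out an array had fewer arrays, while the fit without a filter had all 8. The cause of these moves was not tested.

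Sign changed only in members that were not called. After median scaling the changes were -0.050 and -0.043 for Hnrnpa2b1 (1373540_at, 1378543_at), -0.11 for Srsf1 (1371581_at), -0.089 for Srsf11 (1368212_at), -0.0048 for Srsf2 (1371839_at), -0.084 for Sf3a1 (1374668_at), -0.016 for Sf3b6, -0.027 for Snrpd1 (1383107_at), -0.11 for Snrpd2 and -0.061 for U2af2 (1395282_at). After quantile normalization they were -0.021 for Hnrnpa2b1 (1378543_at), 0.044 for Hnrnpc, -0.077 for Sf3a1 (1374668_at), 0.010 for Snrpe and -0.047 for U2af2 (1395282_at). Without single arrays the ranges were -0.037 to 0.012 for Hnrnpc, -0.012 to 0.12 for Srsf11 (1368212_at), -0.13 to 0.027 for Srsf6 (1371999_at), -0.19 to 0.21 for Srsf7-ps4, -0.044 to 0.16 for Sf3a1 (1374668_at), -0.10 to 0.012 for Sf3b1 (1390234_at), -0.11 to 0.0021 for Sf3b2 (1377070_at), -0.098 to 0.0099 for Sf3b5, -0.12 to 0.018 for Snrpd1 (1379320_at), -0.013 to 0.066 for Snrpd2 and -0.027 to 0.18 for U2af2 (1395282_at). Probe sets under the filter level limit what can be said of Srsf3, Srsf7 and Snrpn.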
